A study of Xenopus tropicalis with 9 samples.

Results

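The 85 genes described here are the numbered cadherins (cdh), the protocadherins (pcdh), the claudins (cldn) and the gap junction genes, or connexins (gja, gjb and gjc), of the frog Xenopus tropicalis. They were chosen by gene symbol alone from the 15288 genes of the deposited table and comprised 23 cadherins, 25 protocadherins, 22 claudins and 15 connexins. RNA was sequenced in 9 libraries. For 6 polyA (PA) libraries polyadenylated RNA was taken from the oocyte and from embryos at Nieuwkoop-Faber stages 6 and 9, the early and late blastula, 12, the gastrula, 16, the neurula, and 30, an early larva. For 3 RiboZero (RZ) libraries, ribosomal RNA was removed from the total RNA of oocytes and of stage 6 and stage 9 embryos. Oocytes at stage VI were freed from ovarian follicles with collagenase, embryos came from in vitro fertilization and were sampled whole, and no strain was named in the labels. The parents of the embryos were outbred frogs given human chorionic gonadotropin to bring on spawning, and the labels name no mutation or other treatment. Each library pooled RNA of 3 biological replicates, so the spread between replicates is unknown at 1 library per condition, and differences were not tested. Because whole oocytes or embryos were used, fewer cells of a type and less RNA per cell cannot be told apart.

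All 4 families hold cells together or connect them. Classical cadherins are calcium-dependent adhesion receptors that bind a like cadherin on the next cell and catenins inside the cell, and protocadherins are related receptors with weaker adhesion and roles in cell sorting and neuronal recognition. Claudins form the strands of tight junctions and set which ions pass between epithelial cells. Connexins assemble into gap junction channels, which pass ions and small molecules from cell to cell. In the Xenopus embryo the first cleavages already make an epithelial surface, before the embryonic genome is activated at the midblastula transition, so the early blastula depends on RNA and protein stored in the egg.

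Levels are RPKM as deposited, the reads on an exon divided by its length and by the mapped reads of the library, averaged over the exons of a gene. For a gene with several exons the floor used below is therefore a guide to depth and not a count of reads. Mapped reads ranged from 13422643 (polyA stage 9) to 44490754 (polyA stage 6). A floor of 3 reads on 1 kb of exon corresponded to 0.0674 RPKM in polyA stage 6 and to 0.224 RPKM in polyA stage 9, and no fold over the oocyte is given for a gene below this floor there (0.116 RPKM). Over 6640 genes that no library had below 1 RPKM, the library median ranged from 8.12 RPKM (polyA stage 12) to 21.2 RPKM (polyA stage 9). A difference between libraries in the deposited values therefore includes a shift of all genes, and values divided by the library median are called scaled below. The paper cautions that polyA and RZ RPKM are not directly comparable, because the RNA pools probably differ in complexity. Ratios of polyA to RZ values below carry this limit. Of 10 oocyte markers, 9 were in the table and each was at 1 RPKM or more in both oocyte libraries. Of 11 markers of follicle and theca cells, the somatic cells around the oocyte, 1 (cyp17a1, 2.56 RPKM) reached 1 RPKM in polyA oocyte and none did in RZ oocyte. They summed to 6.23 RPKM in polyA oocyte, 0.215 RPKM in polyA stage 6 and 1.3 RPKM in polyA stage 9, and to 1.46, 0.94 and 1.03 RPKM in the RZ libraries of the same stages. Of these, nr5a1 alone had 0.581, 0.158 and 1.23 RPKM in the polyA and 0.635, 0.875 and 0.9 RPKM in the RZ libraries. It made most of each sum at stages 6 and 9, where no other marker of this list exceeded 0.0733 RPKM (amh, RZ stage 9).

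The oocyte carried few genes of these families. A gene was called maternal at 1 RPKM or more in polyA or RZ oocyte, and 17 of the 85 members (20%) met this, against 62.2% of all genes. They were 3 cadherins (cdh3, cdh4 and cdh16), 4 protocadherins (pcdh1, pcdh11x, pcdh11y and pcdhac2), 7 claudins (cldn4, cldn5, cldn6.1, cldn6.2, cldn7, cldn12 and cldn15.2) and 3 connexins (gja1, gjb1 and gjb2). Of these, 11 passed in both oocyte libraries, 4 through polyA alone (pcdh11y, cldn15.2, gjb1 and gjb2) and 2 through RZ alone (cdh4 and cldn5).

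Embryonic members were the larger group. A gene was called embryonic when a later polyA library had at least 10 times the polyA oocyte RPKM and at least 1 RPKM. This held for 33 members (38.8%), against 17.8% of all genes, with 9 of 23 cadherins, 10 of 25 protocadherins, 7 of 22 claudins and 7 of 15 connexins. Of the 33, 9 were listed at 0 in polyA oocyte and therefore only had to reach 1 RPKM. The members cldn5, gjb1 and gjb2 met both definitions. A further 38 members met neither, and 37 of them stayed below 1 RPKM in every library. The other was cdh22, highest at 1.6 RPKM in polyA stage 16. Across all libraries 48 members reached 1 RPKM, and 4 clustered protocadherins (pcdha5, pcdha6, pcdha8 and pcdhgb6) were listed at 0 throughout. Reads mapping to several positions had been left out, and the similarity of these genes to other copies was not checked, so these 0 values are uncertain.

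**Figure D1:**
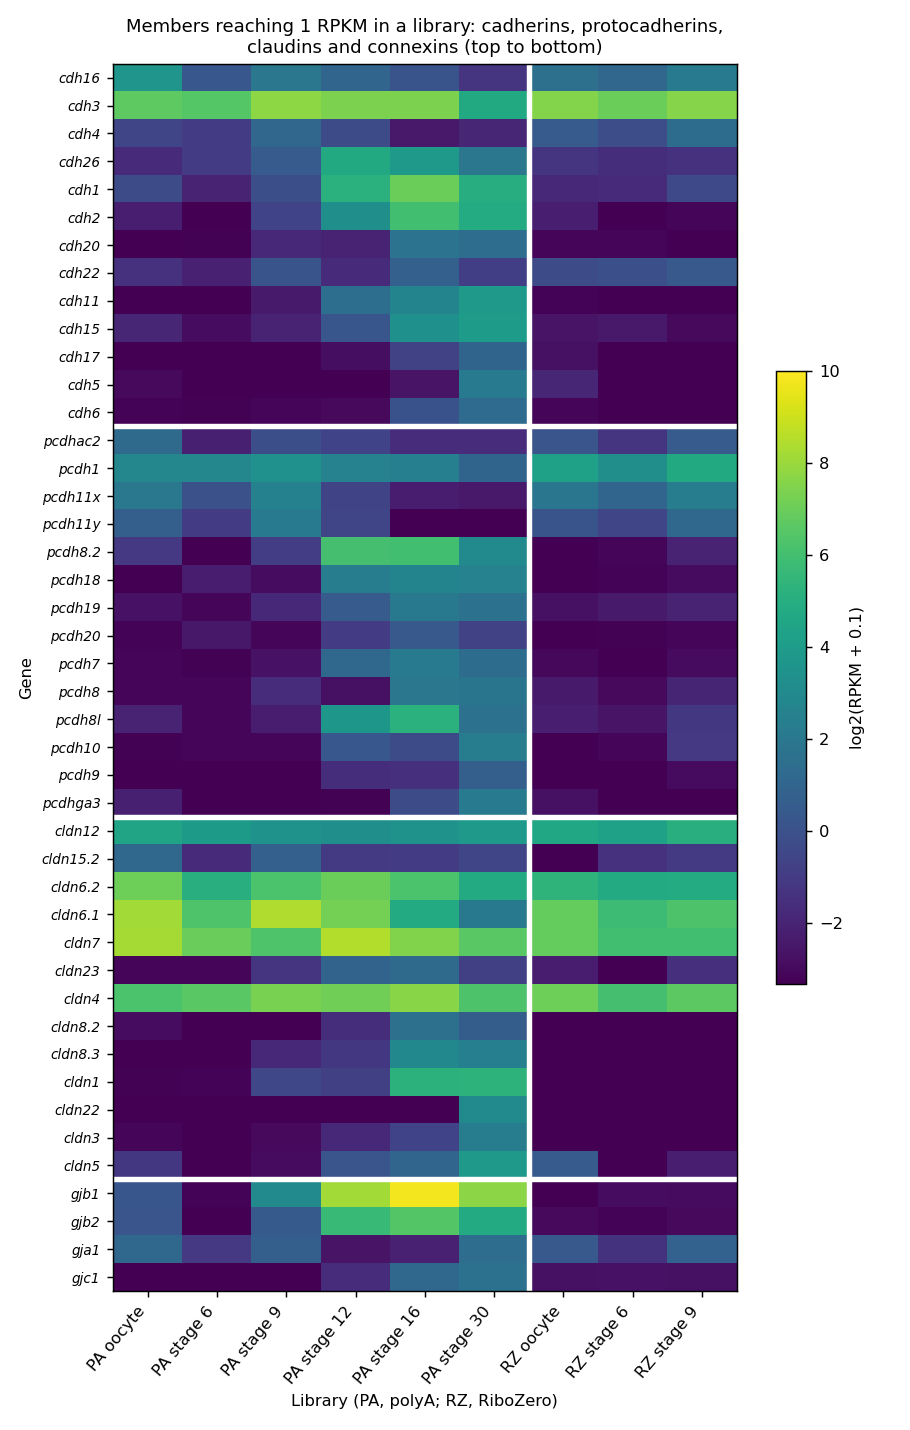
Level of members with at least 1 RPKM in a library, all but 4 of the 48, as log2(RPKM + 0.1). Rows are genes, grouped by family and ordered by the polyA stage of their highest RPKM; columns are the 6 polyA and the 3 RZ libraries. The bright rows that run through all 9 columns are cdh3 and the claudins cldn4, cldn6.2 and cldn7, with cldn12 less bright. The row of cldn6.1 is bright except at stage 30 (4.12 RPKM), and most other rows are dark until stage 12 or later.

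A single cadherin made up most of the cadherin RPKM in the oocyte and the blastula. C-cadherin (cdh3, scaffold 4, 52566581 to 52598665 of the JGI 7.1 assembly), the main maternal adhesion receptor of the Xenopus blastula, had 102, 91, 216, 163, 167 and 27 RPKM in polyA oocyte and stages 6, 9, 12, 16 and 30. In RZ oocyte, stage 6 and stage 9 it had 186, 130 and 191 RPKM. It took 87.2%, 97.4% and 95.3% of the summed cadherin RPKM in the 3 early polyA libraries and 96.5%, 96.7% and 94.9% in the RZ libraries. This share does not depend on scaling between libraries. It was 66.7% at stage 12, 41.9% at stage 16 and 19.7% at stage 30. Between the early stages the direction of the cdh3 level did depend on scaling. Deposited values were lower at stage 6 than in oocyte and lower at stage 12 than at stage 9, whereas scaled values were 150 at stage 6 against 72.2 in oocyte, and 271 at stage 12 against 137 at stage 9. The low value at stage 30, 0.162 times that of stage 16, was also low after scaling, at 36.5 against 241.

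The cadherins that replaced it as the largest share came on in gastrula and neurula. E-cadherin (cdh1), the epithelial cadherin, had 0.727, 0.14, 0.833, 36.8, 130 and 31 RPKM over the 6 polyA stages, and 0.189, 0.196 and 0.674 RPKM in RZ oocyte, stage 6 and stage 9. N-cadherin (cdh2), the cadherin of the neural plate and of muscle, had 0.117, 0, 0.539, 10, 62.4 and 29.4 RPKM, and at most 0.114 RPKM in an RZ library. Both were low in all 6 early libraries and highest at stage 16, at 178 times (cdh1) and 532 times (cdh2) the polyA oocyte level, although the cdh2 oocyte value lay at the depth floor. At stage 30 cdh1 held 22.7%, cdh2 21.5% and cdh3 19.7% of the cadherin sum.

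Other cadherins peaked earlier or later than these. Transcripts of cdh26 had 0.205, 0.405, 1.34, 27.3, 14.8 and 3.78 RPKM over the polyA stages, with the highest value at the gastrula, and 0.294, 0.237 and 0.27 RPKM in the RZ libraries. M-cadherin (cdh15), known from skeletal muscle and its satellite cells in mammals, had 1.07, 10.1 and 16.5 RPKM at stages 12, 16 and 30 and at most 0.168 RPKM before. The mesenchymal cadherin cdh11, expressed by cranial neural crest in Xenopus, had 2.67, 6.35 and 14.7 RPKM at the same stages and at most 0.0982 RPKM before. At stage 30 the endothelial VE-cadherin (cdh5) had 4.39 RPKM, cdh6 had 2.45 RPKM and cdh17, the liver-intestine cadherin of mammals, had 1.84 RPKM. The gene models of cdh15 and slc22a31 overlap, and strand was not recorded, so their reads cannot be told apart where they overlap.

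The other 2 maternal cadherins were minor, although cdh16 held 10.4% of the cadherin sum in polyA oocyte. Kidney-type cdh16 had 12.1, 1.12, 3.78, 1.91, 0.997 and 0.309 RPKM over the polyA stages, against 2.91, 1.98 and 4.2 RPKM in RZ oocyte, stage 6 and stage 9. Its polyA value at stage 6 was 0.0928 times that of the oocyte, while its RZ value was 0.681 times. Retinal cadherin (cdh4) had 0.582, 0.422, 2.02, 0.748, 0.0898 and 0.173 RPKM in the polyA libraries and 1.34, 0.774 and 2.49 RPKM in the RZ libraries. The cdh4 model is a short fragment, positions 1000 to 3036 of the small scaffold 6594, so its level rests on few exons.

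**Figure D2:**
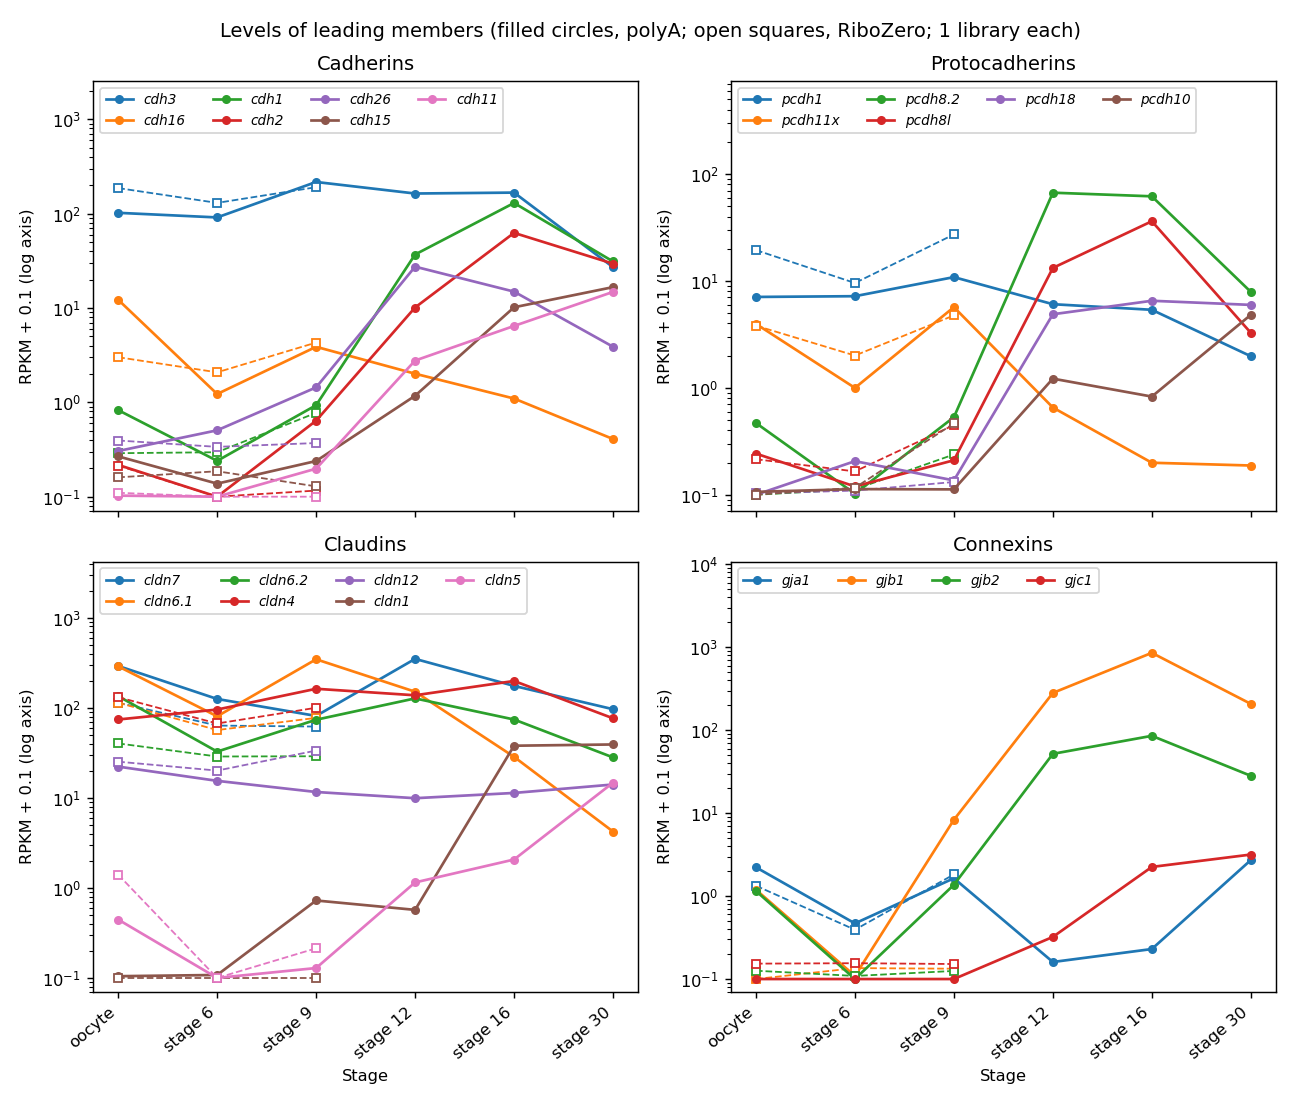
RPKM + 0.1 (log axis) of leading members by stage, in 4 panels for the 4 families. Filled circles with solid lines are polyA libraries, open squares with dashed lines RZ libraries, with 1 library per point. The maternal lines (cdh3, pcdh1, cldn4, cldn6.1, cldn6.2, cldn7 and cldn12) start high, and cdh1, cdh2, pcdh8.2, pcdh8l, gjb1 and gjb2 climb steeply between stage 9 and stage 12.

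The protocadherins formed a small part of the total in every library. Their largest summed RPKM was 126, at stage 16. The maternal member pcdh1, whose Xenopus protein has been named axial protocadherin, had 6.98, 7.1, 10.7, 5.96, 5.27 and 1.88 RPKM over the polyA stages and 19.3, 9.46 and 27.1 RPKM in RZ oocyte, stage 6 and stage 9. Its polyA value was below its RZ value at all 3 shared stages. The pair pcdh11x and pcdh11y moved alike. Whether they are similar enough in sequence to lose multi-mapping reads was not checked. The pcdh11x gene had 3.86, 0.898, 5.58, 0.554, 0.0992 and 0.0876 RPKM, and pcdh11y had 1.54, 0.408, 4.18, 0.593, 0 and 0 RPKM, in the polyA libraries. Both were nearly absent from stage 16 on. The clustered member pcdhac2 had 0.121 RPKM in polyA stage 6, against 2.32 RPKM in polyA oocyte, and 0.322 RPKM in RZ stage 6, against 1.03 RPKM in RZ oocyte.

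Among the embryonic protocadherins, 6 of 10 were first at 4 times the oocyte level at stage 12, against 26.6% of all embryonic genes. The pcdh8 genes, a group that includes the paraxial protocadherin of Xenopus gastrula mesoderm, stood highest. The member pcdh8.2 had 0.369, 0.00223, 0.432, 66.7, 61.7 and 7.8 RPKM over the polyA stages, and took 68.2% of the protocadherin sum at stage 12. Its relative pcdh8l had 0.143, 0.0196, 0.11, 13.1, 36 and 3.17 RPKM. Neither exceeded 0.348 RPKM in an RZ library. The third, pcdh8, came on later, with 0.0506, 3.86 and 3.57 RPKM at stages 12, 16 and 30. The highest values of pcdh18, pcdh7 and pcdh10 were below those of pcdh8.2 and pcdh8l. At stages 12, 16 and 30, pcdh18 had 4.78, 6.42 and 5.87 RPKM, pcdh7 had 2.14, 4.57 and 2.51 RPKM, and pcdh10 had 1.12, 0.728 and 4.72 RPKM. Of the clustered gamma genes, pcdhga3 reached 4.6 RPKM at stage 30.

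The claudins were the most abundant family in the oocyte. They held 85.5% of the summed RPKM of the members in polyA oocyte and 65.8% in RZ oocyte, and 6 claudins were at 1 RPKM or more in each. The epithelial claudin cldn7 had 291, 125, 81.2, 349, 175 and 96.4 RPKM over the polyA stages and 114, 63.4 and 61.8 RPKM in RZ oocyte, stage 6 and stage 9. The claudin-6 gene cldn6.1 had 289, 80.3, 346, 151, 28.4 and 4.12 RPKM, and 114, 56.5 and 77.2 RPKM in the RZ libraries. Its neighbour cldn6.2 had 135, 32.5, 73.6, 127, 74 and 28 RPKM, and 40.1, 28.7 and 28.9 RPKM in the RZ libraries. All 3 had a higher RPKM in polyA than in RZ libraries at every shared stage, and of the 3 cldn6.1 had the lowest level at stage 30.

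Of the abundant claudins, cldn4 alone had a model that allowed read counts. It has a single exon (scaffold 2, 52743308 to 52746007), for which RPKM multiplied by length and mapped reads returns whole reads. It had 5152, 11476, 5892, 9303, 8322 and 3318 reads in the polyA libraries and 8189, 4038 and 6444 reads in the RZ libraries, which correspond to 74.1, 95.5, 163, 138, 199 and 76.4 RPKM, and to 131, 66.9 and 100 RPKM. Its polyA level was 0.565 times its RZ level in oocyte (95% exact binomial interval 0.545 to 0.585), 1.43 times at stage 6 (1.38 to 1.48) and 1.63 times at stage 9 (1.57 to 1.68). These intervals, here and below, cover counting error only, not the error between libraries or the shift of all genes. From oocyte to stage 6 its deposited value was 1.29 times as high in polyA and 0.51 times as high in RZ. The scaled polyA values were 158 at stage 6 and 52.5 in oocyte. Maternal cldn12 had 22.1, 15.3, 11.5, 9.81, 11.2 and 14 RPKM in the polyA libraries and 25.1, 20 and 33.4 RPKM in the RZ libraries. The cldn12 and adam22 models overlap.

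Of the 7 embryonic claudins, 4 were first at 4 times the oocyte level at stage 16, against 40% of all embryonic genes, 2 at stage 30, against 24%, and 1 at stage 12. Claudin-1 (cldn1), needed for the skin barrier in mice, had 0.00453, 0.00788, 0.625, 0.47, 37.8 and 39.1 RPKM over the polyA stages and was listed at 0 in all 3 RZ libraries. Single-exon models allowed read counts for cldn5 and 5 others that the rule for naming genes selected. The stage 12 member was cldn23, with 1, 2, 13, 147, 116 and 25 reads over the polyA stages. Counts were highest at stage 16 for cldn8.3, with 21, 278 and 211 reads at stages 12, 16 and 30, and for cldn8.2, with 13, 100 and 50 reads. The cldn3 gene had 13, 24 and 219 reads at these stages, 8.8 times as high at stage 30 as at stage 16 (5.76 to 14). Claudin-22 (cldn22) had 186 reads at stage 30, or 7.87 RPKM with an exact Poisson interval of 6.78 to 9.09, and 0 reads in the other 8 libraries, where the floor of 3 reads on this model is at most 0.152 RPKM (polyA stage 9).

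Claudin-5 (cldn5), the claudin of endothelial cells in mammals, was present in the oocyte, absent at stage 6 and returned later. It had 23, 0, 1, 68, 79 and 610 reads over the polyA stages and 78, 0 and 7 reads in RZ oocyte, stage 6 and stage 9. Its polyA level was 0.265 times its RZ level in oocyte (0.159 to 0.426), and its stage 30 level was 42.5 times that of polyA oocyte (28 to 67.5). Of the 11 follicle and theca markers, 7 were listed at 0 in each stage 6 library, compared with 1 in polyA and 3 in RZ libraries of the oocyte. Of all 15288 genes, 12812 were above 0 in polyA oocyte and 11996 in polyA stage 6, and 12274 and 11789 in the RZ libraries. Of the 85 members, 56 and 43 were above 0 in polyA, and 46 and 40 in RZ. The marker nr5a1 was higher in RZ stage 6 (0.875 RPKM) than in RZ oocyte (0.635 RPKM). The endothelial cadherin cdh5 was listed at 0 in both stage 6 libraries. In oocyte cdh5 had 0.17 RPKM in RZ and 0.0276 RPKM in polyA, the latter below the floor of 0.116 RPKM. The connexin gja4, which joins mouse oocytes to their granulosa cells, had 0.00546 RPKM in polyA stage 6, against 0.532 RPKM in polyA oocyte. In RZ, gja4 was listed at 0 at stage 6, against 0.0525 RPKM in oocyte, below the floor of 0.13 RPKM. Of the vessel markers, kdr had 0.00707 RPKM in polyA stage 6, against 0.0405 RPKM in polyA oocyte. In RZ, kdr had 0.0187 RPKM at stage 6, against 0.177 RPKM in oocyte. The other, pecam1, went the other way in polyA, with 0.18 RPKM at stage 6 against 0 in oocyte. In RZ, pecam1 had 0.0417 RPKM at stage 6, against 0.0882 RPKM in oocyte. The part of residual follicle cells in these oocyte values was not tested.

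**Figure D3:**
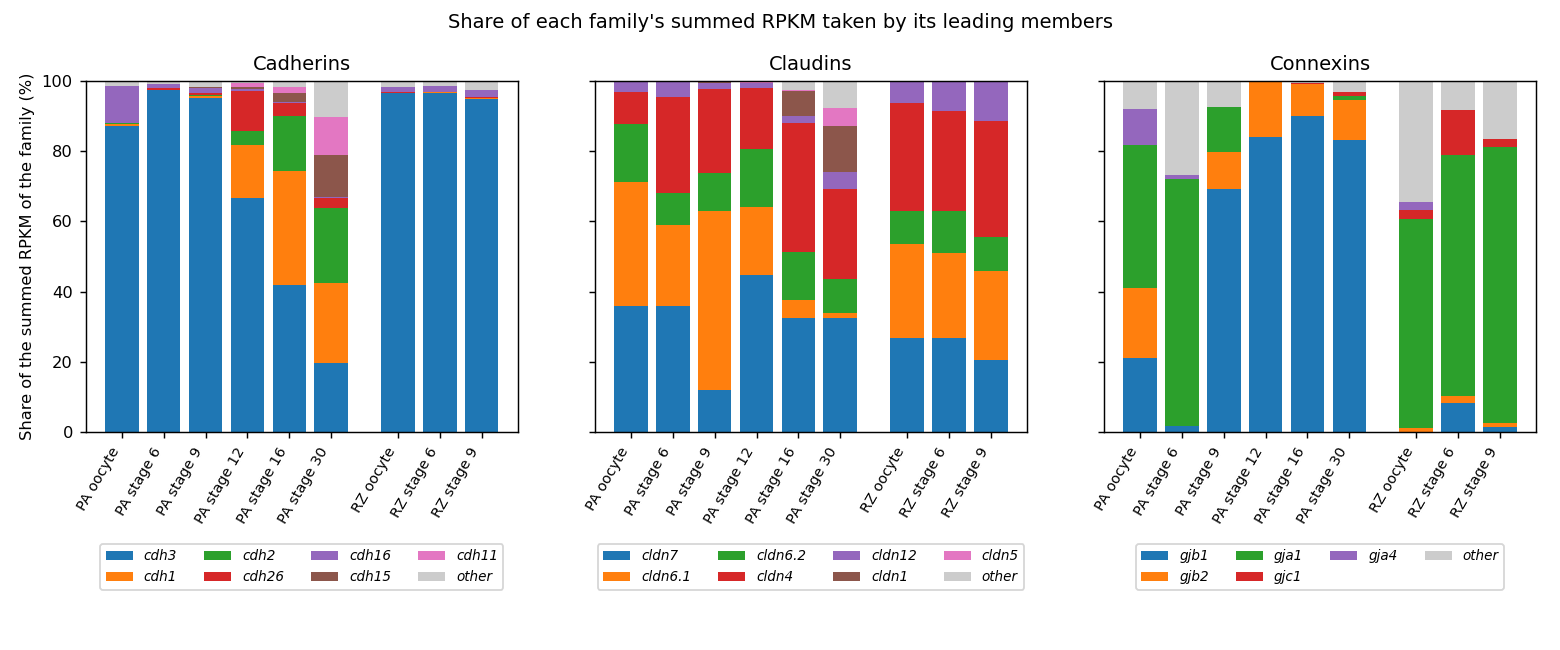
Share (%) of the summed RPKM of the cadherins, claudins and connexins taken by their leading members, with 1 stacked bar per library and grey for the remaining members. In the left panel cdh3 fills 19.7% of the bar at stage 30, against at least 87.2% in the early libraries; in the right panel gja1 leads in the RZ bars and gjb1 takes at least 83.3% from stage 12 on.

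The connexins had the widest range of summed levels of the 4 families. They summed to 5.21, 0.523, 11.9, 334, 949 and 249 RPKM over the polyA stages and to 2.08, 0.428 and 2.2 RPKM in RZ oocyte, stage 6 and stage 9. Their share of the summed member RPKM was 47.1% at stage 16, against 0.548% in polyA oocyte. A single gene made most of this sum. The beta connexin gjb1, a gap junction gene of liver and other epithelia in mammals, had 1.09, 0.00891, 8.21, 281, 855 and 207 RPKM over the polyA stages, 783 times the polyA oocyte level at its highest. It was the most abundant of the 85 members at stages 16 and 30. The related gjb2, an epithelial connexin of the inner ear and skin, had 1.05, 0, 1.27, 51.7, 85.4 and 28.1 RPKM. At stages 12, 16 and 30, gjb1 took 84.2%, 90.1% and 83.3% of the connexin sum.

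The early polyA values of gjb1 and gjb2 had no counterpart in RZ. In RZ oocyte, stage 6 and stage 9, gjb1 had 0, 0.0355 and 0.0332 RPKM and gjb2 had 0.026, 0.00896 and 0.0252 RPKM, all below the floor of 3 reads on 1 kb. At stage 9 the log2 PA/RZ was 7.95 for gjb1 and 5.65 for gjb2, ranked 1 and 7 from the highest of 9486 maternal genes with a ratio, and both ratios rest on RZ values too low to fix their size. Their calls as maternal, and that of gjb1 as first induced at stage 9, rest on the polyA library alone. A gap in oocyte and at stage 9 also appeared over genes that are abundant later. The 121 embryonic genes that reached 100 RPKM in a late polyA library had a median of 0.617 RPKM in polyA oocyte against 0.0989 RPKM in RZ oocyte, and of 2.78 RPKM in polyA stage 9 against 0.206 RPKM in RZ stage 9. At stage 6 there was no such gap, with medians of 0.0554 RPKM in polyA against 0.0584 RPKM in RZ. The median log2 PA/RZ of all maternal genes was also lower at stage 6 (-0.63) than in oocyte (0.29) or at stage 9 (0.22). The 121 genes include 2 members, gjb1 itself and cdh1. At stage 9 cdh1 had 0.833 RPKM in polyA against 0.674 RPKM in RZ, and in oocyte 0.727 RPKM against 0.189 RPKM. The 3 muscle markers summed to 16.9 RPKM in polyA stage 9 against 0.797 RPKM in RZ stage 9. At the next stage, polyA stage 12, their sum was 28.4 RPKM. Of the 3, actc1 had 27.5 RPKM at stage 12 against 13.3 RPKM at stage 9, while tnnt3 (0.96 RPKM at stage 12 against 2.44 RPKM at stage 9) and myh4 (0.00287 RPKM at stage 12 against 1.14 RPKM at stage 9) were lower at stage 12. Differences were smaller for the other larval marker groups. In polyA and RZ stage 9, nervous system markers summed to 2.15 and 0.73 RPKM, and vessel markers to 0.495 and 0.293 RPKM. Pronephros markers summed to 0.577 and 0.132 RPKM, and the epidermis marker had 0.557 and 0 RPKM. Cilia and heart markers summed to at most 0.0751 RPKM in polyA and to 0 in RZ. Whether these values have a source in common was not tested.

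The maternal connexin of both library types was gja1, the most widespread connexin of vertebrate tissues. It had 217, 65, 82, 6, 8 and 167 reads over the polyA stages and 113, 26 and 163 reads in RZ oocyte, stage 6 and stage 9. These correspond to 2.12, 0.368, 1.54, 0.0604, 0.13 and 2.62 RPKM and to 1.23, 0.293 and 1.72 RPKM. Unlike cdh3 and the abundant claudins, it was almost gone at stage 12, at 0.0392 times its stage 9 level (0.014 to 0.0891), and had returned at stage 30, at 20.1 times its stage 16 level (9.99 to 47.4). Its dip at stage 6 appeared in both library types, at 0.173 times the oocyte level in polyA (0.129 to 0.23) and 0.238 times in RZ (0.149 to 0.367). Single-exon gjc1 was late and low, with 9, 54 and 80 reads at stages 12, 16 and 30.

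Of the 5 steps between polyA libraries, that from stage 9 to stage 12 had the widest gap between the medians of the members and of all genes. Steps were counted at 4-fold or more with at least 1 RPKM in the higher library. From stage 9 to stage 12, 16 of 28 members with 1 RPKM in either library were higher, against 9.18% of all genes, and 4 were lower (pcdh11x, pcdh11y, cldn15.2 and gja1), against 35.3%. The 16 were 5 cadherins, 6 protocadherins, 3 claudins and 2 connexins. The median log2 change of the members was 2.28 and that of all genes -1.34, on log2(RPKM + 0.1). With scaled values 17 of 26 members were higher and 0 lower, against 17.9% and 10.6% of all genes. Embryonic genes are part of both lists, so the comparison restates in part that more members are embryonic.

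At the earlier steps the whole table shifted as well. From oocyte to stage 6, 0 of 15 members were higher, against 1.51% of all genes, and 8 were lower (cdh16, pcdhac2, pcdh11x, cldn6.2, cldn15.2, gja1, gjb1 and gjb2), against 33.7%. From stage 6 to stage 9, 8 of 16 were higher (cdh4, pcdh11x, pcdh11y, cldn6.1, cldn15.2, gja1, gjb1 and gjb2), against 32.5% of all genes, and 0 were lower, against 0.457%. After scaling, 3 of 13 were lower at the first of these steps, against 8.73% of all genes. At the second, 1 of 12 was higher and 1 lower, against 4.45% and 4.37% of all genes. In the RZ libraries, 2 of 13 members (cldn5 and gja1) were at least 4-fold lower at stage 6 than in oocyte, against 2.38% of all genes, and 2 of 14 (pcdhac2 and gja1) were higher at stage 9 than at stage 6, against 9.69%. No member moved 2-fold or more in opposite directions in the 2 library types over the same step, among 11 to 13 members with values to compare. Among all genes the shares were 1.79% (stage 6 against oocyte), 3.68% (stage 9 against stage 6) and 1.19% (stage 9 against oocyte).

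At the later steps members went both ways. From stage 12 to stage 16, 10 of 33 were higher, against 17.8% of all genes, and 1 (cldn6.1) was lower, against 2.09%. The higher ones included cdh2, cdh15, cdh20, cdh22, pcdh8, cldn1, cldn8.2, cldn8.3 and gjc1. From stage 16 to stage 30, 10 of 42 were higher, against 10.5%, and 8 were lower, against 4.99%. The higher ones included cdh5, pcdh9, pcdh10, pcdhga3, cldn3, cldn5, cldn22 and gja1. The lower ones included cdh1, cdh3, pcdh8.2, pcdh8l, cldn6.1, cldn23 and gjb1, among them the leading cadherin, protocadherin and connexin of the neurula.

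**Figure D4:**
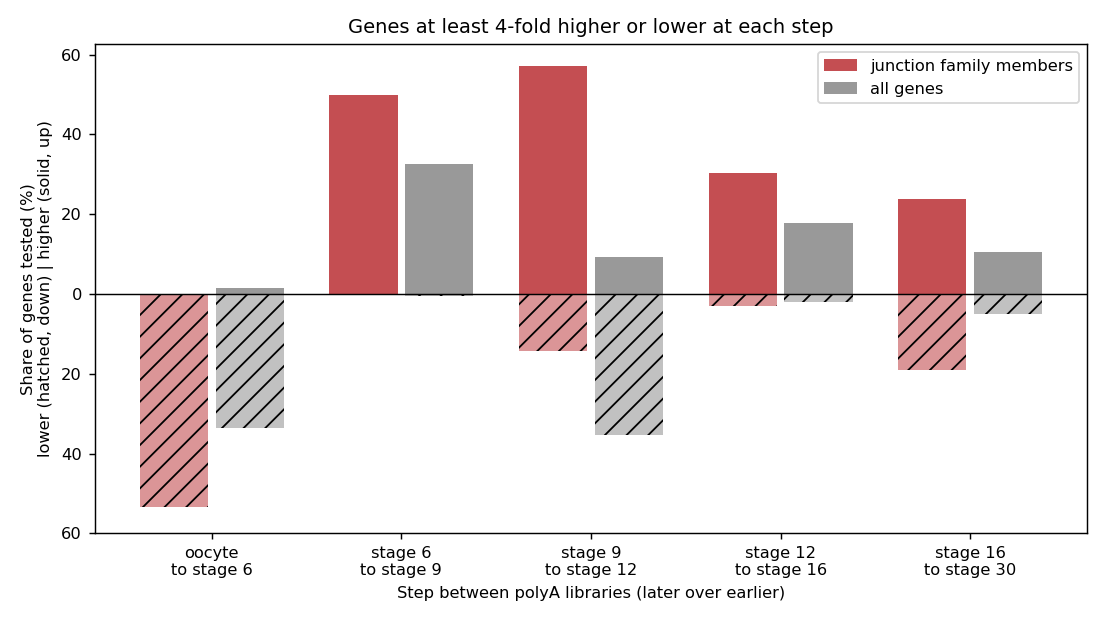
Share (%) of genes at least 4-fold higher (solid bars, upward) or lower (hatched bars, downward) at each step between polyA libraries, for the members (red) and all genes of the table (grey), among genes with at least 1 RPKM in either library. At the step from stage 9 to stage 12, 57.1% of the members are higher, against 9.18% of all genes.

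Embryonic members were first induced at stages 9 to 30. First induction was the first stage at 4 times the oocyte RPKM and at least 1 RPKM. It fell at stage 9 for 2 members (cdh26 and gjb1), while 12 followed in the gastrula, 10 in the neurula and 9 in the larva. Of all 2721 embryonic genes, 1.91% were first induced at stage 6, 7.5% in the late blastula, 26.6% in the gastrula, 40% in the neurula and 24% in the larva. Both stage 9 members were low in RZ stage 9, with 0.27 RPKM for cdh26 and 0.0332 RPKM for gjb1. Without polyA stage 9, the 2 fell at stage 12. The highest polyA level of the 48 members at 1 RPKM or more lay in the oocyte for 5, in the late blastula for 6, in the gastrula for 3, in the neurula for 18 and in the larva for 16. Thus 37.5% peaked in the neurula, against 15.3% of the 12237 genes at 1 RPKM. In the oocyte the shares of members and of these genes were 10.4% and 25.7%, and in the early blastula 0% and 2.16%. For the late blastula they were 12.5% and 30.1%, for the gastrula 6.25% and 4.49%, and for the larva 33.3% and 22.2%.

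In deposited values a minority of the maternal members declined after stage 9. At stage 12, 6 of 17 (35.3%) were under a fraction of 0.5 of their stage 9 polyA RPKM, against 62.9% of all maternal genes. They were cdh4, pcdh11x, pcdh11y, cldn6.1, cldn15.2 and gja1. The count of maternal members includes cldn5, gjb1 and gjb2, which are embryonic too, and at stage 12 gjb1 was 34.2 times and gjb2 40.8 times as high as at stage 9. The library median was 21.2 RPKM at polyA stage 9 and 8.12 RPKM at polyA stage 12, so these deposited declines include a shift of all genes. After scaling, 3 of 17 declined (pcdh11x, pcdh11y and gja1), and the share of all maternal genes after scaling was not computed. Scaled values at stages 9 and 12 were 220 and 250 for cldn6.1, 1.28 and 1.24 for cdh4, and 0.998 and 0.62 for cldn15.2.

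The PA/RZ ratio sets the polyA RPKM of a gene against its RZ RPKM, and the paper proposes that it may reflect relative polyadenylation. Only genes above 0 in both libraries of a stage have a ratio. In oocyte this left out cldn15.2 and gjb1, listed at 0 in RZ, and at stage 6 cldn5 and gjb2, listed at 0 in polyA. Log2 PA/RZ of the maternal members had medians of 0.62, -0.46 and 0.26 over oocyte, early and late blastula, beside 0.29, -0.63 and 0.22 for all maternal genes. At or below -0.5 were 5 of 15 members in oocyte, against 28.1% of all maternal genes, 7 of 15 at stage 6, against 54.1%, and 4 of 17 at stage 9, against 21.2%. In oocyte the 5 were cdh3, cdh4, pcdh1, cldn4 and cldn5. At stage 6 they were the 3 cadherins, pcdh11x, pcdh11y, pcdhac2 and gjb1, and at stage 9 pcdh1, pcdhac2, cldn5 and cldn12. The stage 6 ratio of gjb1 rests on values below the floor in both libraries. That of cldn5 at stage 9 rests on 1 polyA read and 7 RZ reads, and its interval (0.00563 to 1.98 times) spans equal levels.

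Ratios of single members moved between stages. Set against the median of all maternal genes, the log2 ratio of cdh3 was -1.17 for oocyte, 0.12 for stage 6 and -0.04 for stage 9. For cldn4 the values were -1.12, 1.14 and 0.48, so both were low in the oocyte and not after. The kidney-type cadherin cdh16 went the other way, at 1.77, -0.19 and -0.38. At stage 9, cldn12 (-1.76) and pcdh1 (-1.56) had lower ratios than all but 2.08% and 3.46% of maternal genes. The claudins cldn6.1, cldn6.2 and cldn7 lay above the median at all 3 stages.

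**Figure D5:**
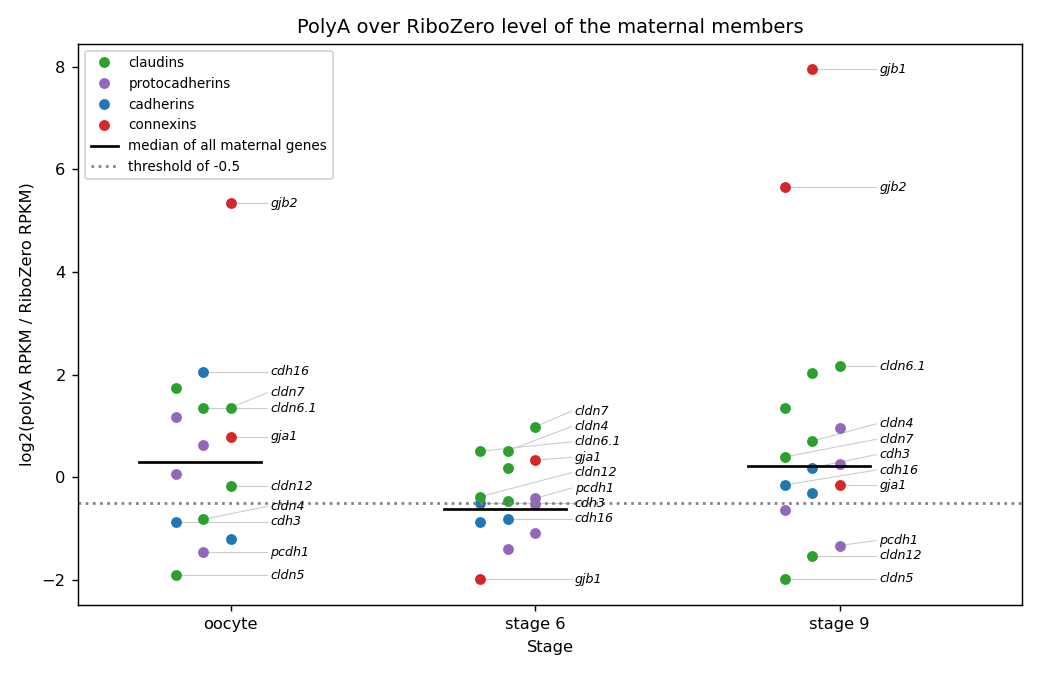
Log2 of polyA RPKM over RZ RPKM of the maternal members above 0 in both libraries, at the oocyte, stage 6 and stage 9. Points are genes coloured by family, black bars the median of all maternal genes, and the dotted line the threshold of -0.5. Most points lie around the black bars, and gjb1 (7.95) and gjb2 (5.65) stand far above them at stage 9.

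Neighbouring members were compared by their stage of highest level. Within 100 kb, start site to start site, lay 22 pairs made of 26 members, and in 5 pairs both members reached 1 RPKM in a polyA library. In 2 of the 5 pairs this stage was shared. The share over neighbouring pairs of all genes was not computed, so this count has no background beside it. The cadherins cdh1 and cdh3 lie 49.5 kb apart on the same strand of scaffold 4, with no other model between them, and were highest at stages 16 and 9. The divergent cldn6.1 and cldn6.2, 1.01 kb apart on scaffold 9, were both maternal, yet at stage 30 cldn6.2 had 28 RPKM and cldn6.1 4.12 RPKM. Scaled values of both were highest at stage 12, at 211 for cldn6.2 and 250 for cldn6.1. Maternal cldn4 lies 37.2 kb from larval cldn3 on scaffold 2. The pair cldn8.3 and cldn8.2, 21.6 kb apart on scaffold 2, were both highest at stage 16.

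Other junction genes were mostly in the oocyte already, as were most genes of the table. Of 42 listed catenin, plakophilin, desmosomal, tight junction, nectin and pannexin genes 37 were in the table, and 28 of them (75.7%) were maternal, against 62.2% of all genes, and 7 (18.9%) were embryonic, against 17.8%. The 7 were pvrl1, pvrl3, ctnnd2, jam2, dsp, pkp2 and cgn, and 3 genes were in both groups. Beta-catenin (ctnnb1), which links cadherins to alpha-catenin and carries Wnt signals, had 65.7, 114, 224, 288, 244 and 172 RPKM over the polyA stages and 305, 148 and 335 RPKM in RZ oocyte, stage 6 and stage 9. Alpha-catenin (ctnna1) had 95.4 RPKM at stage 12, its highest, against 50.5 RPKM in polyA oocyte. Plakoglobin (jup), shared by desmosomes and adherens junctions, had 133 RPKM at stage 16, against 24 RPKM in polyA oocyte. The tight junction protein occludin (ocln) had 8.22 RPKM at stage 30, against 78.3 RPKM in polyA oocyte. The nectin pvrl2 and p120-catenin (ctnnd1) had 52.1 and 45.9 RPKM in polyA oocyte. The largest folds over the oocyte that depth allowed were 20.7 for jam2, 18 for pvrl3 and 15.8 for pkp2. From stage 9 to stage 12, 2 of 30 such genes (6.67%) were at least 4-fold higher and 10 (33.3%) lower, near the 9.18% and 35.3% of all genes.

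The threshold of 1 RPKM in the oocyte lay among several members. Just above it in the higher of both oocyte libraries were gjb2 (1.05 RPKM), gjb1 (1.09 RPKM), cldn5 (1.3 RPKM) and cdh4 (1.34 RPKM). Just below were cdh22 (0.734 RPKM), cdh1 (0.727 RPKM), gjb7 (0.594 RPKM) and gja4 (0.532 RPKM).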

How the data were processed

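Per the study's methods, total RNA was extracted from each biological replicate, enriched for polyA RNA in 2 rounds or depleted of ribosomal RNA, and pooled. cDNA was primed with random hexamers without marking strand. The deposited values are RPKM, which the authors averaged over the non-redundant exons of each gene, after alignment with BWA 0.6.1 to JGI assembly 7.1 without multi-mapping reads. The column units listed as other in the deposited table are RPKM too. Starts are given counted from 1.

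The members and all lists were chosen with earlier results of these data known. With 1 library per condition there was no test. Mapped reads were recovered from the smallest steps of RPKM multiplied by length. Models with whole reads in all 9 libraries, within 0.001, were taken as single-exon: 525 genes, 14 of them members. Their intervals are exact, at 95%, for counting error only. The procedures were tested on simulated data. PA/RZ used no pseudocount, and step medians used 0.1 RPKM. Scaled values are RPKM divided by the library median of 6640 genes and multiplied by the mean of the medians.

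Named genes were members at 5 RPKM or more in a library, per family the 3 highest in oocyte and the 5 with the largest fold over oocyte, those nearest to 1 RPKM in oocyte, and members of counts spelled out. Others were named after their values were seen. Symbols of 80 of 85 members matched the RefSeq list. The results of 4 genes are not reported here, and protein features were not analysed here. Alternatives changed thresholds, folds, pseudocounts, scaling and the oocyte library used. Python 3.11.15, numpy 2.4.6, pandas 2.3.3, scipy 1.17.1 and matplotlib 3.10.9 were used.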

Additional observations from a re-analysis of the deposited data

How the results depend on the processing

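No paired analysis was possible because each condition had 1 library, and no replicate could be left out. Of 81 alternative values for 33 results, 50 stayed within 1.5 times the count, or 0.1 of the median, given above, and 31 did not; the cause was not tested. At 2-fold the step from stage 16 to stage 30 had 13 members higher and 18 lower, against 10 higher and 8 lower at 4-fold. Among the alternatives, shares over all genes were computed only for the scaled steps. The other alternative counts, here and below, therefore have no background beside them. The count of 33 embryonic members stayed within 1.5 times, at 29 to 39. That of 17 maternal members was 21 at 0.5 RPKM, 12 at 2 RPKM, 15 in polyA oocyte alone, 13 in RZ oocyte alone and 15 after scaling. These maternal counts also lay within 1.5 times, but only 11 members remained when both oocyte libraries had to reach 1 RPKM. Requiring 10-fold over RZ oocyte, or over the higher oocyte library, was chosen after seeing the data and gave 34 and 33 embryonic members. Dropping polyA stage 9 was also chosen then and gave 14 first induced at stage 12.

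Scaling by the library median gave 1 member first induced at stage 9, 3 declining members, and peak counts of 3 for oocyte, 2 for early blastula, 3 for late blastula and 6 for gastrula. Scaled steps gave 3 lower from oocyte to stage 6, and 1 higher and 1 lower to stage 9. They gave 0 lower to stage 12 and 2 lower to stage 16. Among all genes these scaled shares were 8.73% lower, 4.45% higher and 4.37% lower, 10.6% lower and 2.87% lower. Scaled medians of the members were -0.63, 0.11, 3.46 and 1.1 for these 4 steps. A pseudocount of 1 RPKM gave medians of -1.19, 1.13, 0.98 and 0.71. At 2-fold, 18 were higher from stage 12 to stage 16, and the share of all genes at 2-fold was not computed. Peaks at 5 RPKM or more numbered 3 for oocyte, 8 for neurula and 5 for larva. This threshold left 23 members, against 48 at 1 RPKM, so these counts have a smaller base. The PA/RZ counts were small: a threshold of -1 gave 3 members each for oocyte and stage 6, centring gave 2 for stage 6, and 1 RPKM in both libraries gave 3, 2 and 2 over the 3 stages. Depth limits members below 0.224 RPKM in polyA stage 9.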
